A study of Mus musculus with 9 samples.

Results

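Atf4 and 7 further genes of its pathway were followed on microarrays of mouse embryonic stem (ES) cells given a microRNA mimic: Ddit3, Trib3, Chac1, Sesn2, Asns, Psat1 and Phgdh. They were chosen by name as the transcription factor ATF4 and well-known genes of the amino acid stress response, and every probe set annotated to them was taken. This gave 8 genes of the 19938 named on the array and 9 probe sets of 35557. Each gene had 1 probe set of its own, and Phgdh shared a further probe set with Gm6756. All 8 genes lay above the 40th percentile of every one of the 9 arrays, so none depended on the filter on dim probe sets.

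All cells were Dgcr8 -/- ES cells, which lack a protein needed to process most microRNA precursors. The 3 groups, with 3 biological replicates each, received 50 nM of a let-7c mimic, 50 nM of a miR-294 mimic, or a mock transfection without a mimic. Every group was cultured without LIF, the cytokine that supports self-renewal, and collected at 12 h. None of the samples analysed here received a control mimic, so in the comparisons with mock the response to a mimic's sequence cannot be told apart from that to transfected RNA as such. Between the mimics the dose was the same. The labels do not say whether the cells were 1 clone or how separate the cultures of the replicates were, so p-values measure only the spread between these samples.

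ATF4 is a basic leucine zipper transcription factor at the centre of the integrated stress response. When amino acids run short or unfolded protein builds up, kinases phosphorylate the initiation factor eIF2, general translation slows, and the Atf4 mRNA is translated more efficiently. ATF4 then raises genes for amino acid synthesis, amino acid import and tRNA charging, together with regulators such as CHOP (encoded by Ddit3) and TRIB3. Because ATF4 protein is set largely by translation, the level of its mRNA does not by itself measure its activity.

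The mimics are named after microRNAs whose mature sequences are held by RefSeq (GRCm38.p6), and these are shown because the groups differ by them. Capitals mark the seed, bases 2 to 8, which largely decides which mRNAs a microRNA binds; the seeds are not shared.
mmu-let-7c-5p: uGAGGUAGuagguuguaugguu
mmu-miR-294-3p: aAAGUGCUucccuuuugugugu

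ATF4 binds with C/EBP proteins at composite sites with the core TGATGNAA, and the promoters of the 8 genes were read for these letters on both strands, from 250 bases before to 50 bases after each annotated start in RefSeq (GRCm38.p6). All 8 genes had a promoter in that table, Psat1 with 2. The core was found in 3 of the 8 genes, against 3.97% of all 32851 promoters of 300 bases. Here and for the strings below, the 8 are counted by gene and the background by promoter. The 8 had also been chosen by name for the ATF4 pathway, so setting these shares side by side is not a test. In Asns, which encodes asparagine synthetase, it lay at positions -23 to -16 on the gene's strand, reading TGATGAAA. In Chac1, which encodes an enzyme that breaks down glutathione, it lay at -193 to -186 on the opposite strand, reading TGATGCAA. In Trib3, which encodes a pseudokinase that binds and restrains ATF4 and CHOP, it lay at 15 to 22 after the start on the opposite strand, reading TGATGTAA.

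A shorter string, TGCAAT, is part of the extended composite site and was added after the sequences had been seen; no match of it here overlapped a match of the core, although the strings can share letters. It was found in 2 of the 8 genes, against 8.4% of all promoters. The matches lay upstream of Trib3 at -30 to -25 and of Psat1 at -133 to -128, for Psat1 only in the promoter printed below. The CCAAT string, bound by the general factor NF-Y, was found in 6 of the 8 genes, all but Asns and Trib3, against 37.4% of all promoters. A match of letters is a description of the sequence and not a bound site. The stretches that hold the core or TGCAAT before the start are printed for the genes concerned, with the match in capitals and each sequence on the gene's own strand.
Asns (chr6:7693210-7693272, minus strand): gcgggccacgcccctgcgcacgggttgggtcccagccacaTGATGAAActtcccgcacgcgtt
Chac1 (chr2:119351009-119351096, plus strand): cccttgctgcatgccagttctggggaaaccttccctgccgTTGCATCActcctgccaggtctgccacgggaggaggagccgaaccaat
Trib3 (chr2:152344061-152344130, minus strand): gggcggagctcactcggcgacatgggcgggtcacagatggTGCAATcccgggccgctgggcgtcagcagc
Psat1 (chr19:15925147-15925232, minus strand): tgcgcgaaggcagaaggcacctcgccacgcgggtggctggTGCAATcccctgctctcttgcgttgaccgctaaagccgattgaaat

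The arrays were alike in overall level, with medians from 7.36 to 7.41 on the log2 scale, and within a group every pair of arrays had a correlation of at least 0.995 across the 13182 genes tested. All 10 ES cell markers were above the 40th percentile on every array, including Pou5f1, Nanog and Sox2. Averaged over these 10 markers, the log2 level was 11.80 to 11.85 per array with mock, 11.63 to 11.64 with let-7c and 11.90 to 11.98 with miR-294. Single ES cell markers did not all follow this average. In the order mock, let-7c and miR-294, Nanog averaged 12.30, 11.84 and 12.21, and Fgf4 10.62, 10.29 and 10.45. Klf4 averaged 9.29, 9.29 and 9.79, and Tdgf1 12.98, 13.04 and 13.21. Of the markers of feeder fibroblasts 4 of 10 were dim, as were 2 of 7 of trophoblast and 3 of 8 of primitive endoderm. Averages over the trophoblast markers were 7.92 to 8.06 per array with mock, 8.06 to 8.26 with let-7c and 7.88 to 8.01 with miR-294. Single trophoblast markers went in different directions. In the same order of groups, Krt8 averaged 10.32, 10.73 and 10.02, Cdx2 6.58, 6.68 and 6.78, and Tfap2c 8.88, 8.57 and 8.72. Cdx2 was among the dim markers, while Hand1, which was not dim, averaged 7.36, 7.41 and 7.52. Averages over the feeder fibroblast markers were 6.78 to 7.12 with mock, 6.87 to 7.25 with let-7c and 6.93 to 7.17 with miR-294. Those of primitive endoderm were 7.11 to 7.19, 7.20 to 7.31 and 7.25 to 7.31 in the same order. The part of these markers in the results was not tested, and in such bulk samples fewer cells of a type and less RNA per cell cannot be told apart.

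Values are log2 intensities as read from their range, since no header states the scale, and a difference is given with its standard error after ±. A gene was called changed at a Benjamini-Hochberg adjusted p under 0.05 in limma over all 13182 genes. With miR-294, 5 of the 8 genes rose against mock (Atf4, Trib3, Chac1, Psat1 and Phgdh) and 0 fell, where 20.7% of all genes tested rose and 21.1% fell. With let-7c, 1 of the 8, Psat1, fell and 0 rose, where 14.8% of all genes fell and 13.9% rose. Between the mimics, 6 of the 8 genes were lower with let-7c and 1, Sesn2, was higher, where 24.5% and 26.2% of all genes were. The median difference of the 8 genes was 0.27 with miR-294 and -0.05 with let-7c against mock, and -0.46 for let-7c minus miR-294. Over all genes tested these medians were 0.02, 0.02 and -0.01. The 3 arrays of a group did not overlap with those of mock for 5 of the 8 genes with miR-294, all higher, where 53.8% of all genes did not overlap and 28.3% lay higher. With let-7c this held for 1 gene, lower, where it held for 43.9% of all genes and 21.9% lay lower. Between the mimics it held for 7 genes, 6 of them lower with let-7c, where it held for 57% of all genes, 28.3% lower and 28.7% higher. Both comparisons with mock use the same 3 mock arrays, so they are not independent.

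**Figure D1:**
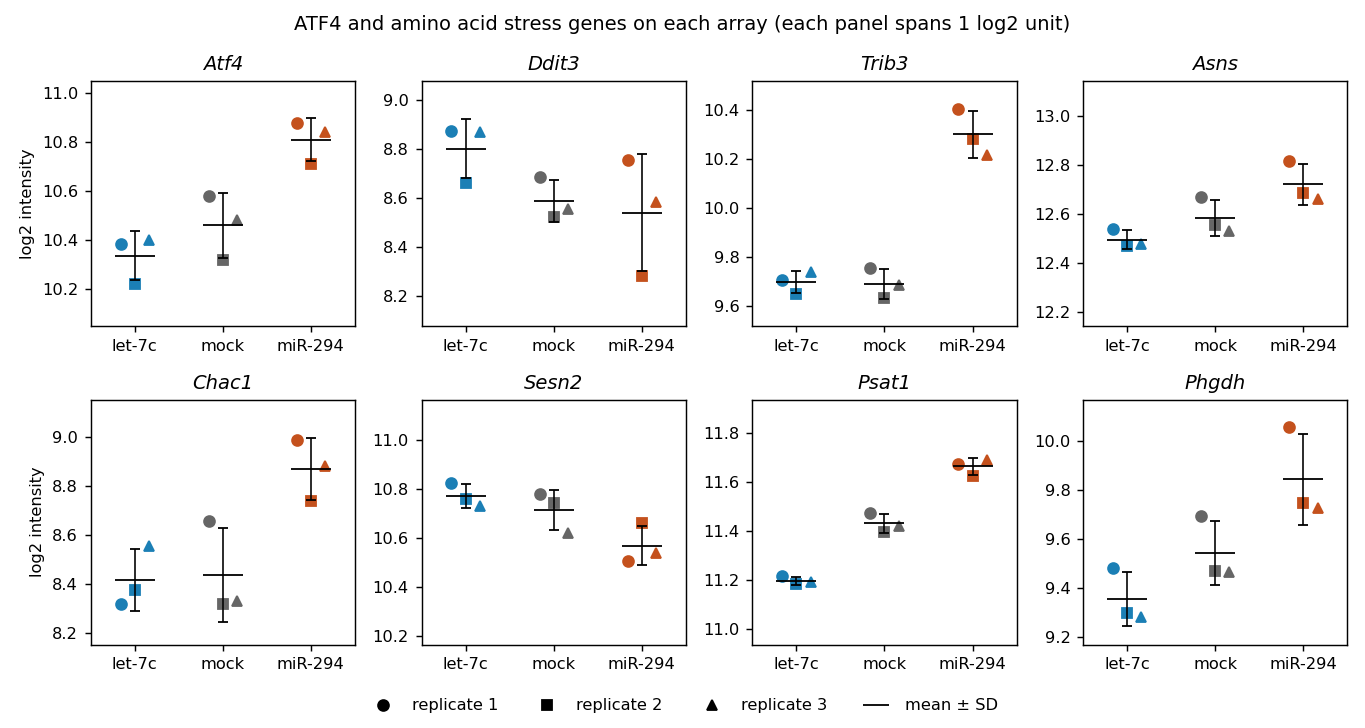
Log2 intensity (vertical axis, each panel spanning 1 log2 unit) of the 8 genes on each of the 9 arrays, by group; symbols mark the replicate number, and the bar with whiskers is the mean ± SD of 3 arrays. For Atf4, Trib3, Chac1, Psat1 and Phgdh the 3 miR-294 arrays lie above the 3 mock arrays, while for Psat1 alone among the 8 the 3 let-7c arrays lie below them.

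Atf4 itself read 10.58, 10.32 and 10.48 on the mock arrays, 10.88, 10.71 and 10.84 with miR-294, and 10.38, 10.22 and 10.40 with let-7c. Every miR-294 array was above every mock and let-7c array, while the let-7c and mock arrays overlapped. The rise with miR-294 was 0.35 ± 0.08 (adjusted p = 0.00329), 1.27-fold, and 4.34% of the genes tested had a larger difference. With let-7c the difference was -0.12 ± 0.08 (adjusted p = 0.248; 95% confidence interval -0.29 to 0.04). Fitted with the replicate number as a block, the let-7c difference passed (adjusted p = 0.0458; up to 0.597 over the alternatives). The difference of Atf4 between the mimics, let-7c minus miR-294, was -0.47 ± 0.08 (adjusted p = 0.000281).

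Ddit3 encodes CHOP, a partner of ATF4 that promotes cell death under lasting stress. It read 8.69, 8.52 and 8.56 with mock, 8.76, 8.28 and 8.58 with miR-294, and 8.87, 8.66 and 8.87 with let-7c. The miR-294 arrays spread around the mock arrays, and the let-7c arrays overlapped with both. Ddit3 was not called with miR-294 (-0.05 ± 0.10, adjusted p = 0.737; 95% confidence interval -0.28 to 0.18), and its sign turned on leaving out miR-294 replicate 2 (0.08) or the first mock array (0.0015). The let-7c difference was 0.21 ± 0.10 (adjusted p = 0.153), and it passed with the replicate block (0.0273; up to 0.329 over the alternatives). Of the 8 genes, 1, Ddit3, did not pass between the mimics (0.26 ± 0.10, adjusted p = 0.0569; 0.00589 to 0.224 over the alternatives), and its interval was 0.03 to 0.49. It passed there without let-7c replicate 2 (0.0347), without miR-294 replicate 1 (0.00952), with the stricter filter (0.0408) and with an intensity trend and robust prior (0.0488). Its pooled SD within groups, 0.16, was the largest of the 8, and 3.03% of all genes had a larger one.

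Trib3 gave the largest difference of the 8 genes. It read 9.76, 9.63 and 9.69 with mock, 10.41, 10.28 and 10.22 with miR-294, and 9.71, 9.65 and 9.74 with let-7c. The miR-294 arrays stood apart from all others by more than the spread within any group, and the let-7c arrays lay among the mock arrays. Trib3 rose with miR-294 by 0.61 ± 0.06 (adjusted p = 1.17e-05), 1.53-fold, a difference exceeded by 0.501% of genes. With let-7c it was at 0.01 ± 0.06 of mock (adjusted p = 0.931; 95% confidence interval -0.12 to 0.13), with a sign that turned on leaving out let-7c replicate 3 or the second mock array. The difference between the mimics was -0.60 ± 0.06 (adjusted p = 5.69e-06).

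Chac1 scattered more within groups than Trib3. It read 8.66, 8.32 and 8.33 with mock, 8.99, 8.74 and 8.88 with miR-294, and 8.32, 8.37 and 8.56 with let-7c. Mock replicate 1 stood above the other mock arrays and close below the lowest miR-294 array. Chac1 rose with miR-294 by 0.43 ± 0.10 (adjusted p = 0.00457), 1.35-fold, and this difference was 0.54 without mock replicate 1. With let-7c it was -0.02 ± 0.10 (adjusted p = 0.903; 95% confidence interval -0.24 to 0.20), and its sign turned when any of replicates 1 and 2 with let-7c or the first mock array was left out. The mimics differed by -0.45 ± 0.10 (adjusted p = 0.0024).

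Sesn2 encodes sestrin 2, a leucine sensor that restrains the growth kinase complex mTORC1, and it went the other way. It read 10.78, 10.74 and 10.62 with mock, 10.51, 10.66 and 10.54 with miR-294, and 10.83, 10.76 and 10.73 with let-7c. The let-7c arrays were all above the miR-294 arrays, and the mock arrays overlapped with both. Between the mimics Sesn2 was the higher by 0.20 ± 0.06 with let-7c (adjusted p = 0.0119). Neither difference from mock passed, at 0.06 ± 0.06 with let-7c (adjusted p = 0.499) and -0.15 ± 0.06 with miR-294 (adjusted p = 0.0632). The miR-294 difference passed with the replicate block (0.0431), without miR-294 replicate 2 (0.0316), without mock replicate 3 (0.0308), with the stricter filter (0.0423) and with an intensity trend and robust prior (0.0251), in a range up to 0.197.

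The remaining 3 genes encode enzymes of amino acid synthesis. Phgdh and Psat1 catalyse the first and the following step that lead from a glycolytic intermediate to serine, and Asns makes asparagine from aspartate. All 3 had their means in the order let-7c, mock, miR-294, as did Atf4 and Chac1. That order was shown by 23.7% of all genes tested.

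Psat1 was the most evenly measured of the 8 genes, with a pooled SD within groups of 0.03 that 95.1% of genes exceeded. It read 11.48, 11.40 and 11.42 with mock, 11.68, 11.63 and 11.69 with miR-294, and 11.22, 11.18 and 11.19 with let-7c. No array of a group overlapped with another group, in the order let-7c, mock, miR-294; it was the only 1 of the 8 with that order on all arrays, which 7.81% of the genes tested showed. Psat1 rose with miR-294 by 0.23 ± 0.04 (adjusted p = 0.00121) and fell with let-7c by 0.23 on the log2 scale (SE 0.04, adjusted p = 0.00208). The mimics differed by -0.47 ± 0.04 (adjusted p = 4.19e-06).

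Phgdh read 9.69, 9.47 and 9.47 with mock, 10.06, 9.75 and 9.73 with miR-294, and 9.48, 9.30 and 9.28 with let-7c. The miR-294 arrays were all above the mock arrays, and replicate 1 was the highest array of each group. Phgdh rose with miR-294 by 0.30 ± 0.10 (adjusted p = 0.0257), 1.23-fold. That call ended without miR-294 replicate 1 (difference 0.19, adjusted p = 0.0872), without mock replicate 2 (0.0866), without mock replicate 3 (0.0851) and with every probe set tested as its own feature (0.0573; lowest over the alternatives 0.000427). With let-7c it did not pass (-0.19 ± 0.10, adjusted p = 0.162; 95% confidence interval -0.40 to 0.02), except with the replicate block (0.00868; up to 0.439 over the alternatives). Between the mimics it differed by -0.49 ± 0.10 (adjusted p = 0.00117).

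The probe set that Phgdh shares with Gm6756 gave a further reading, in which the sources cannot be separated. It read 10.15, 10.08 and 10.07 with mock, 10.47, 10.25 and 10.29 with miR-294, and 9.87, 9.85 and 9.92 with let-7c, so that its groups did not overlap. Fitted with every probe set as its own feature, it was higher with miR-294 than with mock (0.24 ± 0.06, adjusted p = 0.0197) and lower with let-7c than with mock (-0.22 ± 0.06, adjusted p = 0.0377).

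Asns moved least among the 3 enzymes. It read 12.67, 12.56 and 12.53 with mock, 12.82, 12.68 and 12.66 with miR-294, and 12.54, 12.47 and 12.48 with let-7c. The mock arrays overlapped slightly with both other groups, while all miR-294 arrays were above all let-7c arrays. Between the mimics Asns differed by -0.23 ± 0.06 (adjusted p = 0.00535), the lower level being that with let-7c. Against mock it read 0.14 ± 0.06 with miR-294 (adjusted p = 0.0712) and -0.09 ± 0.06 with let-7c (adjusted p = 0.259), neither of which passed. The miR-294 difference passed with the replicate block (0.0195), without mock replicate 1 (0.0397), with the stricter filter (0.0480), with arrays centred on the 75th percentile (0.0370) and with an intensity trend and robust prior (0.0175), in a range up to 0.228.

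**Figure D2:**
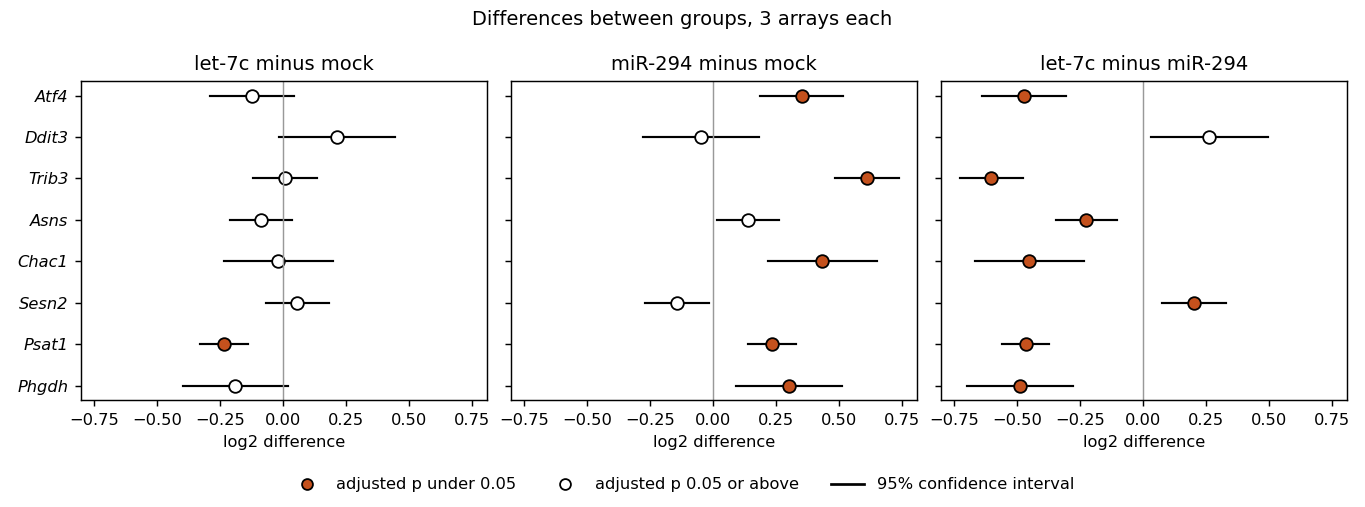
Log2 difference (horizontal axis) of each of the 8 genes in the 3 comparisons of 3 against 3 arrays; lines are 95% confidence intervals from limma and filled points passed an adjusted p of 0.05. In the comparison with miR-294, 5 genes lie to the right of 0 and passed; between the mimics, 6 passed to the left and Sesn2 to the right.

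With the replicate number as a block, the genes called among the 8 went from 1 to 4 with let-7c against mock, and from 5 to 7 with miR-294. The share of all genes called went from 28.7% to 34.6% and from 41.9% to 46.9% at the same time. The genes gained were Atf4 and Phgdh, lower, and Ddit3, higher, with let-7c, and Asns, higher, and Sesn2, lower, with miR-294. Arrays with the same number tended to deviate from their group means in the same direction. Replicate 1 was the highest array in all 3 groups for Ddit3, Asns and Phgdh, against 9.07% of all genes tested. For Ddit3 with let-7c, replicates 1 and 3 read alike at 8.87. Replicate 2 was the lowest array in all 3 groups for Atf4, Ddit3 and Psat1, against 6.21% of all genes. Trib3, Chac1 and Sesn2 shared neither of these patterns. Replicate 1 was the lowest let-7c array for Chac1 and the lowest miR-294 array for Sesn2. For Trib3, replicate 3 was the highest let-7c array and the lowest miR-294 array.

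**Figure D3:**
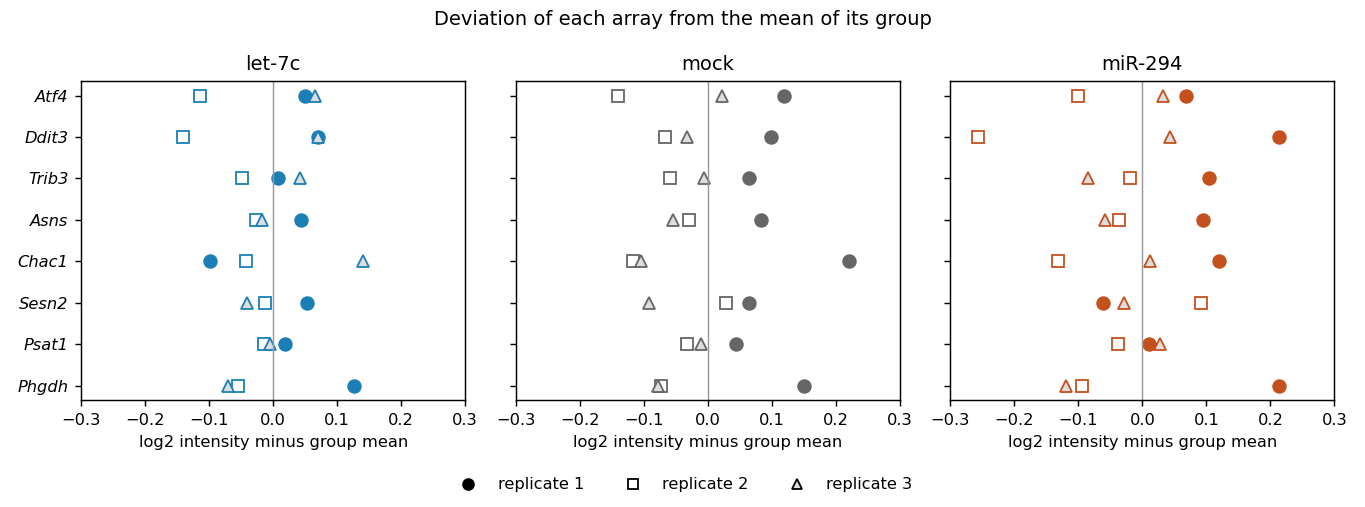
Log2 intensity of each array minus the mean of its group (horizontal axis) for the 8 genes, with symbols for the replicate number. Replicate 1 lies to the right of 0 in all 3 groups for Atf4, Ddit3, Trib3, Asns, Psat1 and Phgdh, by up to 0.21.

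For the genes called against mock, the other tested genes with the most similar pattern were found by the root mean square difference over the 9 arrays, after each gene was centred on its mock mean. For Atf4 these were Dus2 (0.05), Klhl22 (0.06) and Atf5 (0.07), the last a transcription factor of the same family. Trib3 was nearest to Eef1e1 (0.05), Slx1b (0.06) and Uqcr10 (0.06), and Chac1 to Slc39a10 (0.08), Zfp36l1 (0.08) and Rpusd4 (0.10). Psat1 was nearest to Aarsd1 (0.03), Chka (0.04) and Atad3a (0.04), and Phgdh to Dusp1 (0.06), Stc2 (0.07) and Echdc2 (0.07).

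The other genes of the pathway were read from 9 lists with 181 entries, of which 169 were matched to a named gene. The median differences of these lists stand beside medians over all genes of 0.02 with either mimic against mock. Of 19 tested genes of amino acid and one-carbon synthesis, 11 rose with miR-294 and 0 fell (57.9% called, against 41.9% of all genes; median 0.20). The largest rises were those of Mthfd2 (0.57) and Shmt1 (0.56), of the folate cycle, Pycrl (0.49), of proline synthesis, and Psph (0.46), the last enzyme of serine synthesis. With let-7c 5 of the 19 fell and 1 rose, Gpx4 (0.13), which encodes a glutathione peroxidase and no enzyme of synthesis although it stood in the list (31.6% called, near the 28.7% of all genes; median -0.15), and with the replicate block 11 were called, where 34.6% of all genes were. Aldh18a1, of proline synthesis, fell most with let-7c (-0.50), followed by the mitochondrial serine hydroxymethyltransferase gene Shmt2 (-0.34).

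Aminoacyl-tRNA synthetases charge tRNAs with amino acids, and only those listed as regulated by ATF4 were read here. Of these, 8 of 11 rose with miR-294, led by Yars (0.53) and Wars (0.40). With let-7c 8 of 11 fell, led by Iars (-0.50) and Gars (-0.38). Each count is 72.7%, against 41.9% and 28.7% of all genes called. The leading genes differed: Yars and Wars did not pass with let-7c (adjusted p = 0.0702 and 0.0958), nor Iars and Gars with miR-294 (0.107 and 0.199). All 11 were lower with let-7c than with miR-294 (100% called, against 50.8% of all genes; median -0.52). Amino acid transporters were mixed. With miR-294 7 of 18 rose, among them Slc7a5 (0.49) and Slc1a5 (0.42), and 3 fell, among them the lysosomal transporter gene Slc36a1 (-0.60); 55.6% were called, against 41.9% of all genes. With let-7c 9 of 18 fell, led by Slc1a5 (-0.59), and 1 rose, the cystine transporter gene Slc7a11 (1.10 ± 0.12, adjusted p = 7.21e-05); 55.6% were called, against 28.7% of all genes. Slc7a11, a known target of both ATF4 and NRF2, read 7.90, 8.10 and 8.03 with let-7c against 7.23, 6.65 and 6.86 with mock and 6.90, 7.01 and 7.03 with miR-294, so that the let-7c arrays were above all others. Mock replicates 2 and 3 lay below the 40th percentile of their arrays (6.84 and 6.86), so the size of this rise rests on dim readings, and the stricter filter left the gene out.

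The kinases of eIF2 and most of the eIF2 machinery listed with them lie upstream of ATF4. Eif2a and Eif2d stood in this list of 17 tested genes, although they encode separate initiation factors and no part of eIF2. With miR-294 8 of the 17 rose, led by Eif2b1 (0.39), a subunit of the eIF2 exchange factor, and Eif2b2 (0.26). Eif2d (0.19) was among these rises, as were Ppp1r15a (0.25) and Ppp1r15b (0.23), which encode subunits of the eIF2 phosphatase. The 2 that fell encode kinases that phosphorylate eIF2, Eif2ak2 (PKR, -0.58) and Eif2ak3 (PERK, -0.14), and 58.8% of the 17 were called, against 41.9% of all genes. With let-7c 6 of 17 fell and 0 rose (35.3% called, against 28.7% of all genes), led by Ppp1r15b (-0.34), which encodes a subunit of the phosphatase that reverses the phosphorylation. Eif2a (-0.25) was among these falls. Of 26 chaperones and other genes of the endoplasmic reticulum unfolded protein response, 13 fell with miR-294 and 1, Herpud1 (0.24), rose (53.8% called, against 41.9% of all genes; median -0.14), with Dnajb9 (-0.98) and Ero1b (-0.55) falling most. Of these 26 genes 14 were called. That count became 7 when mock replicate 2 was left out, where 34.2% of all genes were called. It became 9 when dim probe sets were kept, where 25.7% of all genes were called. With let-7c 3 of the 26 fell and 1 rose, 15.4% against 28.7% of all genes.

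Among ATF4 partners and stress regulators, 7 of 23 fell with miR-294 and 3 rose; the share called, 43.5%, was close to the 41.9% of all genes. The falls were led by Sesn3 (-0.45), a relative of Sesn2, and Klhl24 (-0.41), and they included the C/EBP partner gene Cebpg (-0.37); Atf5 was among the rises (0.27, adjusted p = 0.00953). With let-7c 5 of 23 rose (21.7%, against 28.7% of all genes called), led by Ddit4l (0.39) and Ddit4 (0.37), which encode inhibitors of mTORC1 signalling, and Atf3 (0.34). Atf3 also rose with miR-294 (0.20, adjusted p = 0.0436), where Ddit4 read 0.25 (adjusted p = 0.0550). Between the mimics Ddit4l differed (0.29, adjusted p = 0.00452), while Atf3 (adjusted p = 0.132) and Ddit4 (0.345) did not pass. The let-7c call of Ddit4 ended without let-7c replicate 1 (adjusted p = 0.0590), let-7c replicate 3 (0.0506) or mock replicate 3 (0.0524), in a range from 0.00123 over the alternatives. The 5 calls with let-7c became 8 with the replicate block, where 34.6% of all genes were called. They became 3 without let-7c replicate 1 or mock replicate 2, and 2 without let-7c replicate 3 or mock replicate 3. With any of these arrays left out, 20.4% to 23.3% of all genes were called. Of 10 glutathione and cysteine genes, 4 rose and 1 fell with let-7c, led by Cdo1 (0.40) and Srxn1 (0.38), and 2 rose and 2 fell with miR-294, led by Srxn1 (-0.44). The shares called were 50% with let-7c, against 28.7% of all genes, and 40% with miR-294, against 41.9%. Of the 4 called with miR-294, a count of 2 was left when either array numbered 3 of the compared groups was omitted. The share of all genes called was then 35.2% without the miR-294 array and 36.1% without the mock array.

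The list for mTORC1 and amino acid sensing, the branch to which Sesn2 belongs, also held parts of the complex itself and its outputs. Of its 26 tested genes, 7 rose and 3 fell with miR-294, and 4 rose and 5 fell with let-7c. These shares, 38.5% and 34.6%, lay near the 41.9% and 28.7% of all genes called. Rragd, which encodes a Rag GTPase, fell with miR-294 (-0.99) and rose with let-7c (0.42), and the arginine sensor gene Castor1 fell with let-7c (-0.77). The translation repressor genes Eif4ebp2 (0.49) and Eif4ebp1 (0.43) rose with miR-294. Of 13 genes listed for ATF4 turnover and mitochondrial stress, 4 rose and 4 fell with miR-294 (61.5%, against 41.9% of all genes called). Creb1 (-0.49) and Atf7 (-0.42) fell most, and Clpp (0.30) and Phb2 (0.30) rose most. Creb1 and Atf7 encode transcription factors and no turnover or mitochondrial proteins, although they stood in the list. With let-7c 3 of the 13 fell (23.1%, against 28.7% of all genes called), led by the chaperonin gene Hspd1 (-0.20). Of these, Hspe1 (-0.13) and Hspa9 (-0.13) lay near the threshold, and 1 remained called without any 1 of let-7c replicate 1, let-7c replicate 3, miR-294 replicate 2, miR-294 replicate 3 or a mock array. With any of those arrays left out, 20.4% to 28.1% of all genes were called.

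**Figure D4:**
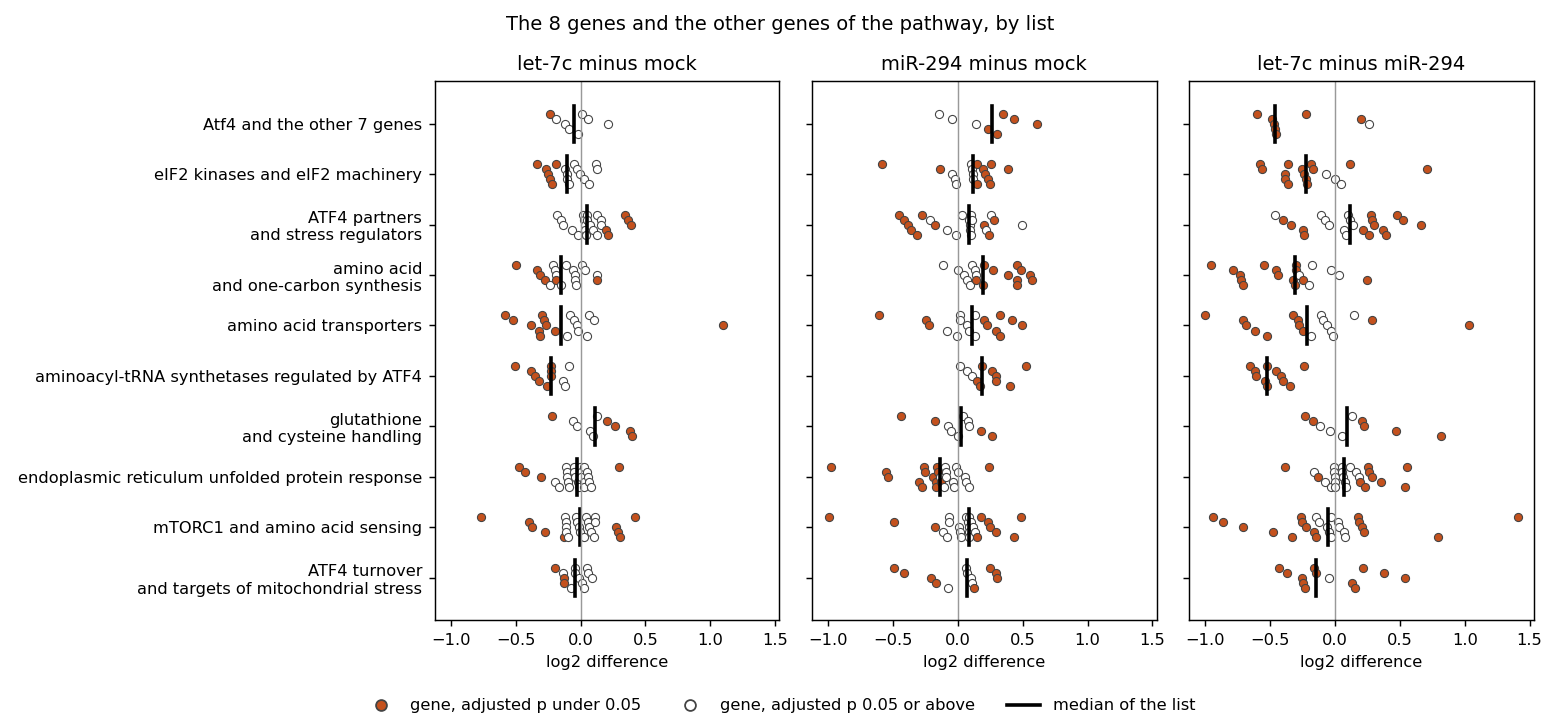
Log2 difference (horizontal axis) of each tested gene, by list, in the 3 comparisons of 3 against 3 arrays; filled points passed an adjusted p of 0.05 and the black bar is the median of the list. The synthetases listed as regulated by ATF4 have medians on opposite sides of 0 with the 2 mimics (-0.23 with let-7c and 0.19 with miR-294). With miR-294 all but 1 of the 14 unfolded protein response genes that passed lie to the left of 0 (median of the list -0.14).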

How the data were processed

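RNA of 9 samples was measured on 1-colour arrays. The submitters' processing notes name GCRMA, with no version given in the labels, for the table the authors deposited. Its range was read as log2 intensity per probe set, and these deposited log2 values entered the fit without further normalization. The number of arrays limits the precision. Probe sets were named from GEO's platform annotation, with symbols updated through the gene ID where RefSeq held it (21698 of 21789 with 1 symbol, 0 changed); 1621 probe sets had several symbols and 12147 none, and none of these named a gene.

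For each of 19938 genes the probe set with the highest mean was kept, and 13182 genes (66.1%) with at least 3 arrays above their array's 40th percentile were tested. One fit of all 9 arrays used limma 3.58.1 (lmFit, eBayes) in R 4.3.3, with 3 group means, 6 residual degrees of freedom and two-sided tests; it was tested on simulated data. The members, gene lists and motifs were chosen with earlier results of these data known. The text names all 8 members, at most 4 called genes per list and comparison, taken by size of change, and the 3 nearest genes of each member called against mock. Gpx4, Eif2ak3, Atf5 as a stress regulator, and Herpud1, Eif2d and Ppp1r15b with miR-294 were named beyond that rule after their values were seen. The same holds for Atf3 and Ddit4 with miR-294, and for Ddit4l, Atf3 and Ddit4 between the mimics.

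Deviations of same-numbered arrays from their group means correlated at 0.133 to 0.418 between let-7c and mock and 0.272 to 0.363 between miR-294 and mock. The rule taken for pairing asked for over 0.1 in all 9 same-numbered pairs. It was met by the pairs with mock but not over all pairs, since 1 pair between the mimics was at 0.029. The values reported as main come from the fit without a block, and values with the block stand beside each of the 8 genes whose call it changed. The alternatives were the replicate block, no filter, a filter at the 60th percentile, quantile normalization, centring, a trend with robust prior, the mean of probe sets, every probe set, only the 2 groups compared, and leaving out each array with the genes tested kept.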

Additional observations from a re-analysis of the deposited data

How the results depend on the processing

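The differences of Atf4, Trib3, Chac1 and Psat1 with miR-294, of Psat1 with let-7c, and of 7 genes between the mimics kept their direction and their side of the threshold under all 18 alternatives, while the calls that changed among the 8 genes are given beside them. In many alternatives only the adjusted p could change. Direction was open to change only with quantile normalization, with centring and with an array of the compared groups left out. With the replicate block, 4 of the 8 genes were called with let-7c against mock in place of 1, as were 8 ATF4 partners and stress regulators and 11 genes of amino acid and one-carbon synthesis; 34.6% of all genes were called there, so that the 8 of 23 partners lay near that share. With the block Ddit3 also passed between the mimics (adjusted p = 0.00589), where 1 same-numbered pair correlated at 0.029. Of the genes for ATF4 turnover and mitochondrial stress with let-7c, 1 was called with no filter, with quantile normalization, with every probe set and with only the 2 groups compared. In these settings 15.7%, 28.1%, 19% and 27.9% of all genes were called. Without the filter, 9 unfolded protein response genes were called with miR-294, where 25.7% of all genes were. Leaving out 1 array gave 2 to 6 calls among ATF4 partners and 1 to 2 among turnover genes with let-7c, where 20.4% to 29% of all genes were called. With miR-294 it gave 2 to 4 among glutathione genes and 7 to 14 among unfolded protein response genes, where 34.2% to 43.5% of all genes were called. Over the arrays left out, uncalled differences that turned sign were those of Chac1 (-0.0897 to 0.0912) and Trib3 (-0.0212 to 0.0398) with let-7c and of Ddit3 with miR-294 (-0.1551 to 0.0803); the cause was not tested. No setting moved the median of all genes by over 0.1. The lowest reading of the 8 genes, 8.28 for Ddit3, lay above the 40th percentile of its array. The part of signal level in their spread was not tested.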
